A study of Mus musculus with 17 samples.

Results

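The genes described here encode the proteasome of mouse cerebral cortex. They are the 49 genes, of 22462 in each file, whose symbol is Psm followed by a letter from a to g and a number. By role these are 7 constitutive alpha and 7 constitutive beta genes of the 20S core particle, 6 ATPase and 11 non-ATPase genes of the 19S regulatory particle, the inducible beta genes Psmb8, Psmb9 and Psmb10, and the thymus and testis forms Psmb11 and Psma8. The others are 3 chaperones of 19S assembly, 4 activator genes, the PI31 gene Psmf1, 4 chaperones of 20S assembly, and Psmc3ip. Psmc3ip matched by name only, since it encodes a recombination protein and not a proteasome subunit.

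Polyadenylated RNA was sequenced from 17 libraries of 8 groups. Each of 7 cell types purified from cortex (microglia, endothelial cells, astrocytes, neurons, oligodendrocyte precursor cells or OPC, newly formed oligodendrocytes or NFO, and myelinating oligodendrocytes or MO) had 2 libraries, and unpurified whole cortex (WC) had 3. All groups carry the strain label FVN/Swiss. The labels give no genotype, treatment, age, purification marker or number of animals, so the spread between libraries may be technical in part and p-values measure that spread alone. Values are FPKM, fragments mapped per length of transcript and per size of library, as the authors deposited them, with 0.1 as the lowest value listed. The depth of each library is unknown.

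The 20S core is a barrel of stacked alpha and beta rings in which 3 beta subunits cut proteins, and the 19S particle recognises, unfolds and feeds ubiquitin-tagged proteins into it. Interferon-gamma is known to induce 3 replacement beta subunits, encoded by Psmb8, Psmb9 and Psmb10, which take the places of the products of Psmb5, Psmb6 and Psmb7 to form the immunoproteasome. The immunoproteasome is known for producing peptides that MHC class I molecules display, and microglia, the resident macrophages of the brain, are among the cells known to carry it.

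Psmb8 and Psmb9 lie in the MHC region of chromosome 17, close to the peptide transporter genes Tap1 and Tap2. Their upstream sequences are shown because these are the members with the largest differences between cell types, with Psme1 and Psme4 added as the activator genes that peaked in different cells. All come from the RefSeq promoter table of build GRCm38.p6, which is another build than the mm9 of the files, and they are written 5′ to 3′ on the strand of the gene. For Psmb9 the stretch chr17:34187331-34187555 on the minus strand is the whole interval of 225 bases between its start and the start of Tap1 on the other strand, with the letters CCAAT, read on either strand, in capitals. For Psmb8, chr17:34198045-34198194 on the plus strand is the 150 bases before its start, with a match to TTCNNNGAA, the core of the gamma-interferon activated site, in capitals. For Psme1, chr14:55578498-55578517 on the plus strand holds bases 5 to 24 of the transcript, with a match, on the other strand, to GAAA, any 2 bases and GAAA, the core of the interferon-stimulated response element, in capitals. For Psme4, chr11:30771695-30771774 on the plus strand is the 80 bases before its start, with both matches to CCGGAA, a core of ETS family sites, in capitals.
Psmb9: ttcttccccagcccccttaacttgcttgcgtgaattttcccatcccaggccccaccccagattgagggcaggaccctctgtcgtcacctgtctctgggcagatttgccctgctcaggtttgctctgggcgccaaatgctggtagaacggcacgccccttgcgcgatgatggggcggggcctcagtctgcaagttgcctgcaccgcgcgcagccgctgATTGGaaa
Psmb8: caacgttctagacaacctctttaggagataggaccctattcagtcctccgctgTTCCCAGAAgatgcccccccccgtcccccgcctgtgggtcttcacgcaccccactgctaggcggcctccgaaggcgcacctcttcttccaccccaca
Psme1: tgtgcTTTCGCTTTCccttc
Psme4: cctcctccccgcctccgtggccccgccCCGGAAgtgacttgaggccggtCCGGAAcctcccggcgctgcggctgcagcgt

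Over windows of 250 bases before to 50 bases after each start, searched on both strands, 41 members had 44 promoters in the table. The letters CCGGAA occurred in 22 of the 44 member promoters, against 14.9% of all 32851 promoters. The response element core occurred in 5 of them, or 11.4%, against 3.44% of all promoters, in Psme1, Psmb3, Psmd4, Psmd9 and Psmg4. TTCNNNGAA occurred in 3, or 6.82%, against 8.3% of all, in Psmb8, Psmd2 and Psmg1. CCAAT occurred in 15, or 34.1%, against 37.4% of all. TGACNNNGC, a core of the antioxidant response element, occurred in 6, or 13.6%, against 12.4% of all, among them Psmb5 and Psmb6. These counts describe letters in a window and were not tested.

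The libraries carried the markers of their labels. For each of the 7 types, the summed FPKM of its own marker list was highest in its own 2 libraries. Microglial markers had a median of 6.42% and 3.08% of their microglial level in the 2 OPC libraries, between 1.29% and 1.71% in WC, and 0.0319% and 0.0192% in endothelial cells. The sum of 4 mural cell markers was highest in endothelial cells, at 219 and 256 FPKM, against 91.8 to 118 FPKM in WC. Most of it was Rgs5, with a mean of 195 FPKM there. Pdgfrb went the other way, with means of 24.4 FPKM in astrocytes and 14.6 FPKM in endothelial cells. Fibroblast markers summed to 44.8 and 73.2 FPKM in OPC, against at most 5.18 FPKM in the other purified libraries and 17.2 to 18.4 FPKM in WC. Neuronal markers had a median of 7.61% and 9.66% of their neuronal level in OPC, and astrocyte markers 5.84% and 4.12% of their astrocyte level. The red cell gene Hbb-b1 stood at 1931 and 157 FPKM in OPC replicates 1 and 2 and at 606 and 749 FPKM in endothelial replicates 1 and 2. In such bulk libraries fewer cells of a type and less RNA per cell cannot be told apart. Differences were tested with limma on log2(FPKM + 1) over the 14011 genes with at least 1 FPKM in at least 2 libraries, and called at a Benjamini-Hochberg adjusted p under 0.05 over all of them. Of the 49 members, 47 passed that filter, and Psmb11 and Psme2 did not.

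The 3 inducible catalytic genes were highest in microglia, followed by endothelial cells, and were low in neurons, astrocytes and the later oligodendrocyte stages. Psmb8, which encodes the replacement for the chymotrypsin-like subunit, stood at 39.9 and 55.9 FPKM in microglia and 8.52 and 9.70 FPKM in endothelial cells. It stood at 3.73 and 3.7 FPKM in OPC and at 2.06, 2.18 and 2.54 FPKM in WC. In NFO it was at 0.453 and 0.608 FPKM, in MO at 0.408 and 0.555, in neurons at 0.410 and 0.279, and in astrocytes at 0.299 and 0.316 FPKM. The libraries of microglia, endothelial cells, OPC and WC did not overlap each other or any lower group, while the other 4 types overlapped their neighbours in the order. Microglia exceeded endothelial cells, the next type, by 2.26 ± 0.17 on the log2 scale (SE), and exceeded each other type with a limma adjusted p of 4.20e-08. Of all genes tested, 7.03% were called higher in microglia than in each other type with a log2 difference of at least 1.

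Psmb9, which encodes the replacement for the caspase-like subunit, stood at 15.8 and 23.0 FPKM in microglia and at 8.93 and 10.5 FPKM in endothelial cells. It was at 1.98 and 2.24 FPKM in OPC and between 1.33 and 1.95 FPKM in WC. Every library of the other 4 types had between 0.122 and 0.441 FPKM, close to the listing floor of 0.1. Microglia lay above endothelial cells without overlap, by 0.91 ± 0.19 on the log2 scale, with a limma adjusted p of 0.00163 against each other type. That difference falls below the limit of 1 on the log2 scale, so Psmb9 was not called. It passed the limit without microglia replicate 1 (1.17), without endothelial replicate 2 (1.02) and with median-of-ratios scaling (1.43). Of the 50-base words of the Psmb9 transcript, 12.5% also occur in Tap1, whose reads there cannot be told apart from it without strand. These words come from GENCODE M21 transcripts, while the interval of 225 bases given above lies between RefSeq starts. The 2 sources were not reconciled.

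Psmb10, which encodes the replacement for the trypsin-like subunit, was at 39.9 and 65.0 FPKM in microglia and at 17.8 and 21.5 FPKM in endothelial cells. Unlike the other inducible genes, it was well above the floor in every library, with 8.82 and 14.8 FPKM in OPC, 5.65 to 8.37 FPKM in the other 4 types and 11.1 to 13.2 FPKM in WC. Microglia exceeded endothelial cells by 1.34 ± 0.25 on the log2 scale, with a limma adjusted p of 8.35e-04 against each other type. Without microglia replicate 2 the difference was 0.99, under the limit of 1. The ratio of the highest to the lowest type mean was 156 for Psmb8, 81.4 for Psmb9 and 8.57 for Psmb10.

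In OPC, Psmb8 reached 7.78% and 7.71% of its mean microglial level, Psmb9 10.2% and 11.6%, and Psmb10 16.8% and 28.3%. Microglial markers stood at a median of 6.42% and 3.08% in the same libraries, which also held the neuronal, astrocyte, fibroblast and red cell transcripts given above. Single microglial markers spread around that median, from Itgam (means of 29.3 FPKM in OPC and 370 FPKM in microglia) to Tmem119 (20.5 and 880 FPKM). The part of these cells in the OPC levels was not tested. In endothelial cells, Psmb8 reached 17.8% and 20.2% of the microglial mean and Psmb9 46.0% and 53.9%, with microglial markers at 0.0319% and 0.0192% of their level there.

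**Figure D1:**
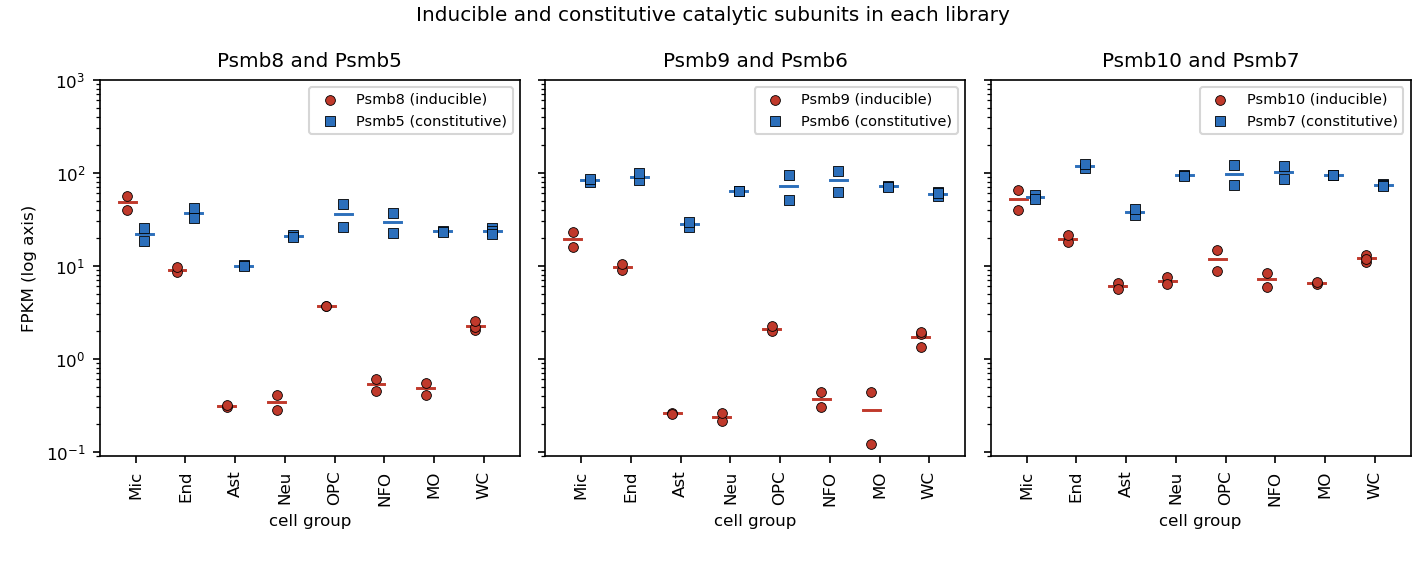
FPKM on a log axis of the 3 inducible catalytic genes (red circles) and the constitutive genes they replace (blue squares) in every library, with bars at group means; Mic is microglia, End endothelial cells, Ast astrocytes, Neu neurons. Psmb8 lies above Psmb5 in both microglial libraries and below it in every other library.

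The constitutive partners varied far less. Psmb5 had 18.4 and 25.6 FPKM in microglia, 32.6 and 41.8 FPKM in endothelial cells and 10.2 and 9.88 FPKM in astrocytes. Psmb6 had 79.0 and 86.7 FPKM in microglia, 83.7 and 98.5 FPKM in endothelial cells and 26.2 and 29.6 FPKM in astrocytes. Psmb7 had 57.2 and 52.6 FPKM in microglia, 113 and 123 FPKM in endothelial cells and 35.5 and 40.6 FPKM in astrocytes. Astrocytes were the lowest type for all 3 and did not overlap any other type.

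Set as a share of the pair, Psmb8 made up 68.5% and 68.6% of the summed FPKM of Psmb8 and Psmb5 in microglia, 20.7% and 18.8% in endothelial cells, 12.6% and 7.43% in OPC and 7.44% to 10.4% in WC. In the other 4 types its share was at most 3.10%. Psmb9 made up 16.7% and 20.98% of its pair with Psmb6 in microglia, 9.64% and 9.6% in endothelial cells, and at most 0.993% in the same 4 types. Psmb10 made up 41.1% and 55.3% of its pair with Psmb7 in microglia, 13.6% and 14.8% in endothelial cells, 15.6% and 12.2% in astrocytes, and 6.27% to 7.39% in neurons, NFO and MO. Microglia were thus the only type in which Psmb8 exceeded its partner in both libraries, and Psmb10 did so in microglia replicate 2 alone.

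The mean log2 ratio in the 2 microglial libraries exceeded that of the 12 other purified libraries by 5.73 for Psmb8 over Psmb5, 4.41 for Psmb9 over Psmb6 and 3.18 for Psmb10 over Psmb7. An exact two-sided permutation test gave p = 0.011 for each, which is the smallest p that 2 against 12 libraries allow. Over the 21 ratio tests the adjusted p was 0.0769. With 2 libraries per type it could not have passed 0.05 whatever the values, so the adjusted test decides nothing. For endothelial cells the differences were 2.06, 3.11 and 0.28, with exact permutation p-values of 0.33, 0.0879 and 0.857. Psmb5 shares 57.1% of its 50-base words with other annotated genes, mostly Gm3375, and Psmb7 shares 28.1% with Nek6, so the levels of both, and ratios over them, are uncertain.

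The genes most like Psmb8 over the 14 purified libraries, by Pearson's r of log2(FPKM + 1), were Tgm2 (0.995), Rcsd1 (0.994), Fes (0.992), Lrrc33 (0.990) and Lyl1 (0.989). Those most like Psmb9 were Lrrk1 (0.994), Stab1 (0.993), Slco2b1 (0.990), Klk8 (0.990) and Arhgap27 (0.989). Among those most like Psmb10 were Twf2 (0.982), Psmb8 itself (0.980), Aldh16a1 (0.977) and Rps6ka4 (0.976). These values are a description, since libraries of the same type are not independent points.

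Psme1 encodes a subunit of the PA28 ring, an interferon-induced cap that opens the 20S core without the 19S particle. It stood at 74.0 and 82.3 FPKM in microglia, 51.3 and 60.0 FPKM in endothelial cells, 35.6 and 34.5 FPKM in neurons and 17.9 and 22.5 FPKM in OPC. It was at 9.47 and 10.5 FPKM in astrocytes, 6.29 and 11.7 FPKM in NFO and 4.58 and 6.02 FPKM in MO, with 23.0 to 26.6 FPKM in WC. The order thus placed neurons after microglia and endothelial cells, without overlap with the types on either side, although neurons had Psmb8 and Psmb9 near the floor. Against the mean of the other purified types Psme1 was higher by 2.18 ± 0.17 in microglia, 1.61 ± 0.17 in endothelial cells and 0.86 ± 0.17 in neurons, and the difference in MO was -2.09 ± 0.17 (log2, SE; limma adjusted p of 3.14e-08, 9.03e-07, 4.67e-04 and 1.03e-07).

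Psme2, the partner of Psme1 in the same ring, was listed between 0.1 and 0.608 FPKM in all libraries. Of its 50-base words 55.6% also occur in the gene copy Psme2b, so its level is uncertain and it entered no test. Psmb11, the thymus form of the catalytic beta gene, was listed at the floor of 0.1 FPKM in every library. Psme3, whose product forms a separate ring in the nucleus, had 26.8 and 25.6 FPKM in microglia, 13.9 and 15.7 FPKM in endothelial cells and 8.82 and 10.4 FPKM in MO. It was the only member lower in endothelial cells than the mean of the other types, by -0.41 ± 0.14 (log2, SE; limma adjusted p = 0.0169), where 38.6% of all genes were lower.

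Psme4, which encodes the single-chain activator PA200, was highest in astrocytes, with 21.1 and 17.4 FPKM. It had 3.92 and 2.24 FPKM in microglia, 2.85 and 3.89 FPKM in MO, and values between 5.80 and 16.5 FPKM in the other purified libraries. No other type's library reached the astrocyte range. The difference in astrocytes was 1.37 ± 0.28 (log2, SE; limma adjusted p = 5.00e-04), and it passed under each of the 3 scalings tried. The Psme4 transcript is 6491 bases long. Over all genes, transcripts over 2500 bases had a median difference of 0.24 in astrocytes, -0.60 in microglia and -0.75 in MO. The part of length in the Psme4 result was not tested. Replicate 2 had the lower Psme4 level in both OPC (5.80 against 12.2 FPKM) and NFO (7.43 against 16.5 FPKM). Psmc6, an ATPase gene of the 19S base, showed the same split, with 22.9 against 38.8 FPKM in OPC and 20.6 against 42.0 FPKM in NFO.

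**Figure D2:**
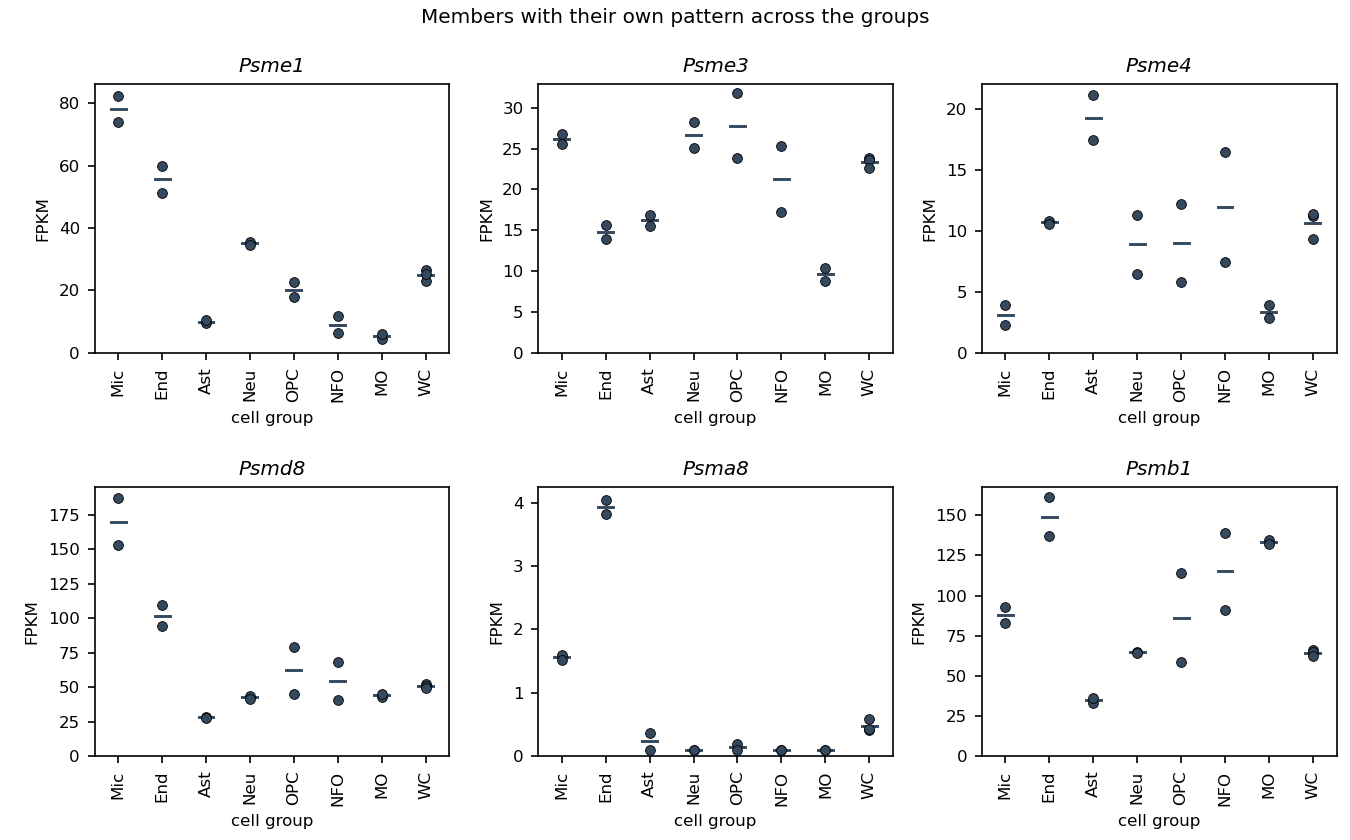
FPKM of 6 members in every library, with bars at group means and each vertical axis starting at 0. Psme1 peaks in microglia and ranks neurons after endothelial cells, Psme4 peaks in astrocytes, Psmd8 in microglia, and Psma8 in endothelial cells.

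Endothelial cells had the highest median level of the constitutive 20S core. The median of the 14 constitutive 20S genes was 77.6 and 88.1 FPKM in endothelial cells, against 66.8 FPKM in the next highest purified library, OPC replicate 2. The 19S median did not stand apart, at 35.7 and 43.4 FPKM in endothelial cells and 42.4 FPKM in OPC replicate 2. Against the mean of the other purified types, 31 of 47 members (66.0%) were higher in endothelial cells, where 35.3% of all genes were higher, and 1 was lower. All 7 alpha and all 7 constitutive beta genes rose, with median differences of 0.98 and 0.73 on the log2 scale. Psmb6 was not called without either endothelial library (limma adjusted p of 0.0604 and 0.214), nor Psmb5 without endothelial replicate 2 (0.102). The largest rises were outside the constitutive rings, in Psmb9 (2.18 ± 0.14), Psmc3ip (2.16 ± 0.15), Psma8 (1.93 ± 0.08) and Psmb8 (1.70 ± 0.13). Psma8 passed the filter through endothelial cells and microglia alone, so its rise restates its level there. Of the 17 genes of the 19S particle 10 rose and none fell, with a median of 0.46. The median of all genes tested was -0.04, and the members' median stood above that of all genes by 0.55 to 0.59 under the 3 scalings.

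Among the 20S genes, Psma6 had 114 and 130 FPKM in endothelial cells and at most 76.9 FPKM in any other library, a difference of 1.3 ± 0.14 from the mean of the others (log2, SE; limma adjusted p = 1.03e-06). Psma7 had 136 and 173 FPKM there and at most 105 FPKM elsewhere, a difference of 1.23 ± 0.17 (limma adjusted p = 1.6e-05). Psmb4, a non-catalytic beta gene, had 188 and 227 FPKM there and at most 138 FPKM elsewhere, a difference of 1.08 ± 0.18 (limma adjusted p = 9.30e-05). None of these genes shares a 50-base word with another annotated gene. Of Psma3, Psma5 and Psmb3, which are among the ring genes with the lowest FPKM, 22.02%, 55.4% and 55.8% of the words are shared with other annotated genes, so their low levels are uncertain.

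Of the members that rose in endothelial cells, 25 did so under all 3 scalings, with Psmb2 and Psmb6 the ring genes not among them, where 28 rose and 2 fell with median-of-ratios scaling and 25 rose and 2 fell with a common sum. Without endothelial replicate 2 the count of rises was 19, and without replicate 1 no member fell. Differences in this comparison also ran with transcript length over all genes, with a median of 0.39 for 877 genes under 1000 bases, 0.14 for 1000 to 1500 bases, 0.02 for 1500 to 2500 bases and -0.13 over 2500 bases. The 20S genes have a median transcript length of 1162.5 bases and the 19S genes one of 1636 bases. The sum of the mural cell markers, mostly Rgs5, was highest in the same libraries, with Hbb-b1 at 606 and 749 FPKM. The part of length, mural cells and red cells in the result was not tested.

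Psma8, known as the alpha subunit of the testis proteasome, had 4.04 and 3.82 FPKM in endothelial cells and 1.6 and 1.51 FPKM in microglia. In the other purified libraries it was at or near the floor, with at most 0.366 FPKM, and WC had 0.410 to 0.581 FPKM. Endothelial cells and microglia alone took Psma8 past the filter, so its calls as higher in these 2 types and lower in others restate that level. The excess of endothelial cells over microglia was 0.95 ± 0.10 on the log2 scale, just under the limit of 1. Psmc3ip had 7.69 and 8.86 FPKM in endothelial cells and at most 2.38 FPKM in any other purified library, and was called higher than each other type (1.46 ± 0.20 on the log2 scale, limma adjusted p = 5.19e-05), where 6.29% of all genes were. Of the words of Psmc3ip 27.1% also occur in Mlx. No member was called higher than each other type in astrocytes, neurons, OPC, NFO or MO, where 3.66%, 5.7%, 1.49%, 0.457% and 0.699% of all genes were.

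Astrocytes had the lowest levels of the constitutive 20S core, with a median of 26.3 and 27.7 FPKM, against 33.1 FPKM in the next lowest purified library, microglia replicate 2. The members together took 0.386% and 0.395% of all FPKM in astrocytes, which overlapped MO (0.381% and 0.437%) and microglia (0.402% and 0.391%), against 0.672% and 0.726% in endothelial cells and 0.534% to 0.572% in WC. Of 47 members 31 (66.0%) were lower in astrocytes than the mean of the other types, where 35.7% of all genes were lower, and 3 were higher, where 37.3% were: Psme4, Psmg2 and Psmd5. All 7 constitutive beta genes fell, with a median of -1.31, and 6 of 7 alpha genes fell, with a median of -0.51. Of the 19S genes 9 of 17 fell, with a median of -0.46. The median of all genes was 0.02, and the members' median differed from it by -0.49 as deposited, by -0.55 with median-of-ratios scaling and by -0.50 with a common sum. The counts were 1 higher and 38 lower, and 8 higher and 20 lower, under those scalings, with 20 members lower and Psme4 higher under all 3. Without astrocyte replicate 1 the count higher was 1.

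Psma7 had 27.6 and 29.6 FPKM in astrocytes, where no other purified library had less than 54.7 FPKM, and differed by -1.55 ± 0.17 (log2, SE; limma adjusted p = 2.36e-06). Psmb1, a non-catalytic beta gene, had 33.3 and 35.9 FPKM in astrocytes and at least 58.3 FPKM in every other purified library, a difference of -1.51 ± 0.20 (limma adjusted p = 1.02e-05). Psmb6 differed by -1.42 ± 0.20 (limma adjusted p = 2.22e-05). Psmb8, near the floor in astrocytes, differed by -1.74 ± 0.13 (limma adjusted p = 3.21e-08), so this call restates its levels in microglia and endothelial cells. Over all genes the median difference in astrocytes was -0.58 for transcripts under 1000 bases, -0.31 for 1000 to 1500 bases, -0.09 for 1500 to 2500 bases and 0.24 over 2500 bases. Length moves here with the particle, and its part in the result was not tested.

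**Figure D3:**
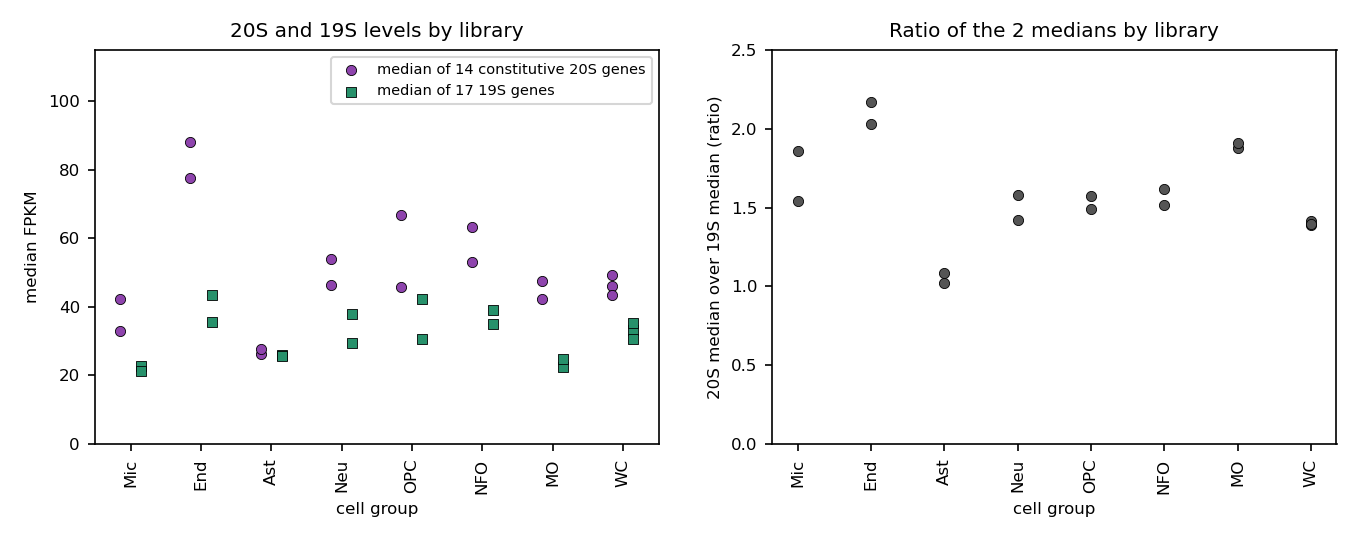
Left, median FPKM of the 14 constitutive 20S genes (circles) and the 17 genes of the 19S particle (squares) in each library; right, the ratio of the 2 medians. The ratio was lowest in astrocytes (1.02 and 1.08) and highest in endothelial cells (2.17 and 2.03). Transcript length differs between the 2 sets of genes, and its part in the ratio was not tested.

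The ratio of the 20S to the 19S median FPKM differed between types. The 20S median was 2.17 and 2.03 times the 19S median in endothelial cells, 1.88 and 1.91 times in MO, and 1.02 and 1.08 times in astrocytes. In the other purified libraries it was 1.42 to 1.86 times, and in WC 1.39 to 1.41 times. The endothelial and astrocyte libraries overlapped no other library. With geometric means in place of medians the ratio was 1.34 and 1.44 in endothelial cells and 0.71 and 0.74 in astrocytes, again without overlap. By that measure the 19S level was the larger in astrocytes, neuron replicate 2 (0.89), OPC replicate 1 (0.93) and WC replicate 3 (0.997). None of these ratios was tested. Median transcript length differs between the particles, at 1162.5 bases for the 20S and 1636 bases for the 19S genes. Over all genes, differences between types ran with length, as given above for endothelial cells and astrocytes and below for microglia and MO. The part of length in these ratios was not tested.

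The ratio of the highest to the lowest type mean had a median of 2.22 over the 17 genes of the 19S particle and 3.51 over the 14 constitutive 20S genes, against 11.4 over all genes tested. Psmc2 and Psmc5, both ATPase genes of the 19S base, had the smallest ratios of the 47 members, 1.44 and 1.48. Across the 7 types 45 members differed in a limma F test (adjusted p under 0.05), and so did 98.6% of all genes. The exceptions were Psmc2 and Psmc5, with adjusted p-values of 0.419 and 0.137. The genes most like the median core subunit over the 14 purified libraries were Kars (r = 0.941), Cct5 (0.934), Blmh (0.928), Uba2 (0.918) and Vcp (0.917), as a description. Cct5 encodes a chaperonin subunit, Uba2 part of the SUMO activating enzyme and Vcp the p97 unfoldase.

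**Figure D4:**
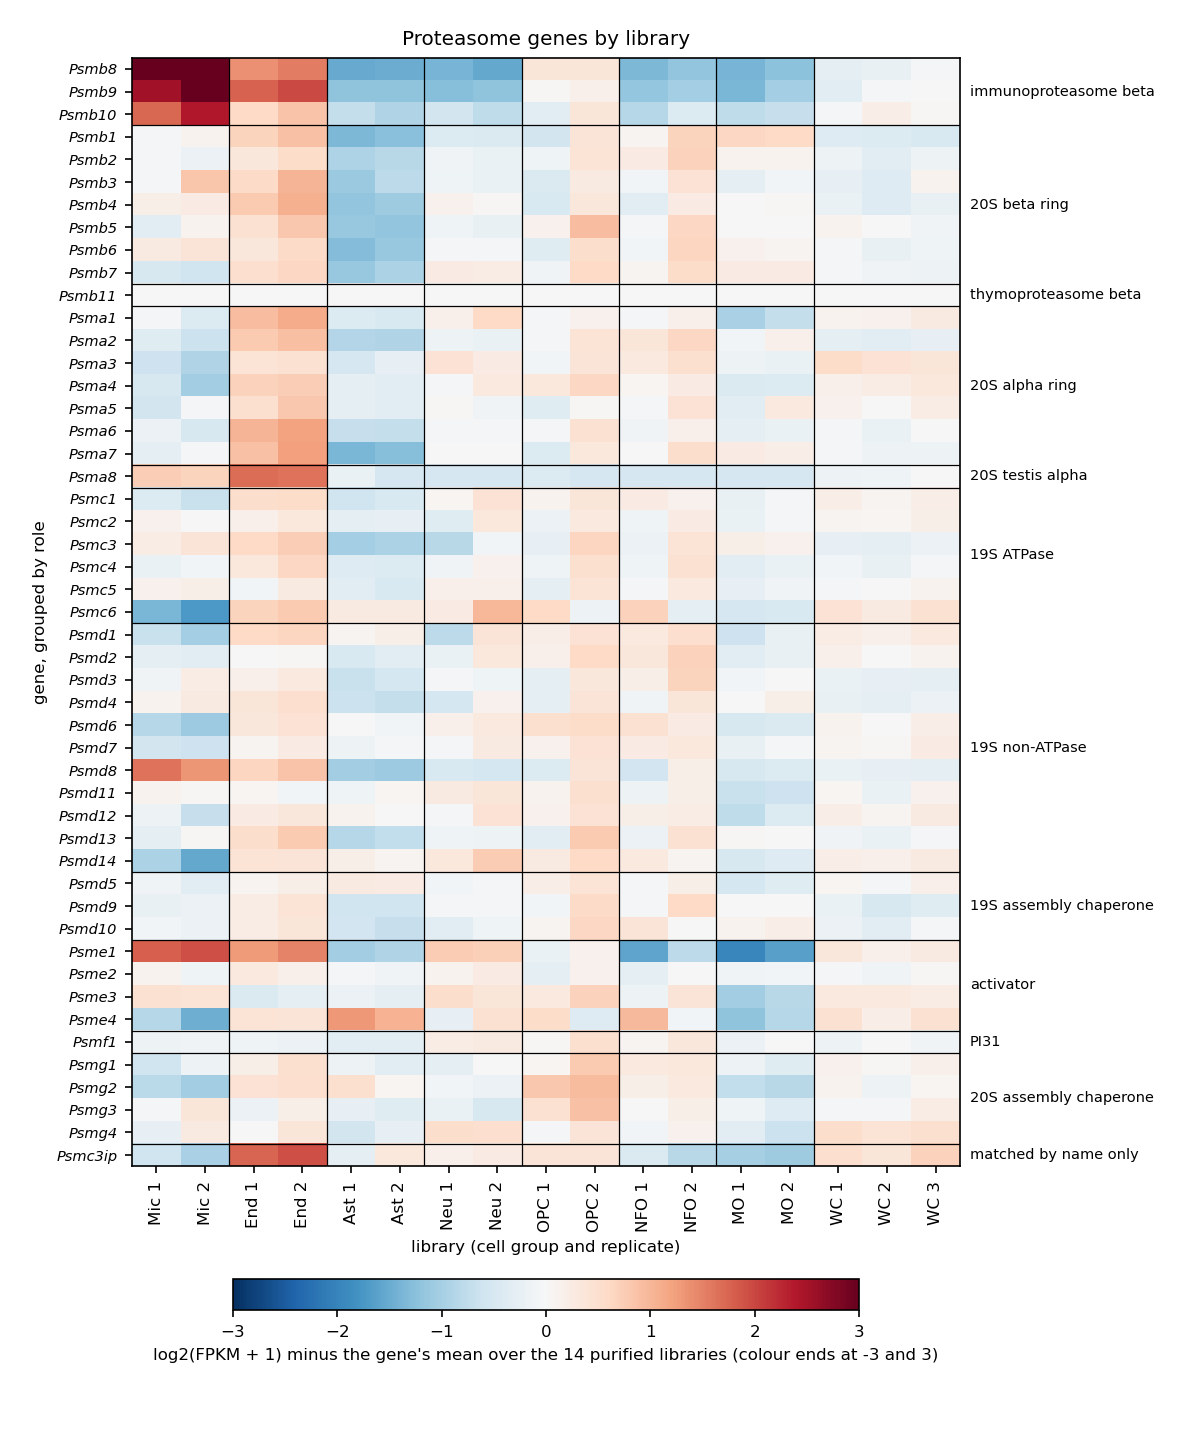
Heat map of log2(FPKM + 1) for the 49 genes (rows, by role) in the 17 libraries (columns), each value as its difference from the gene's mean over the 14 purified libraries, red above and blue below. The inducible genes are red in microglia and endothelial cells, and the constitutive rings are red in endothelial cells and blue in astrocytes.

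Microglia did not share the endothelial rise of the constitutive core. Against the mean of the other types, 7 of 47 members (14.9%) were higher, where 24.9% of all genes were, and 17 (36.2%) were lower, where 55.2% of all genes were. The 7 were Psmb8 (4.33 ± 0.13), Psmb9 (3.25 ± 0.14), Psmb10 (2.41 ± 0.19), Psme1, Psmd8, Psma8 and Psme3 (log2, SE; limma adjusted p of 1.06e-12, 5.25e-11 and 4.08e-08 for the first 3). None of the 14 constitutive 20S genes rose and 5 fell. The median of all genes was -0.44 in this comparison and the members' median stood above it by 0.27, or by 0.44 and 0.04 with median-of-ratios and common-sum scaling. The split of calls moved with it, to 19 higher and 9 lower with the first and 6 higher and 34 lower with the second. Over all genes the median difference in microglia ran from -0.05 for transcripts under 1000 bases to -0.60 for those over 2500 bases. The part of length in the result was not tested.

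Psmd8, which encodes the non-ATPase subunit Rpn12 of the 19S lid, was the one 19S gene that rose in microglia. It had 187 and 153 FPKM in microglia, 94.2 and 109 FPKM in endothelial cells, 27.8 to 79.1 FPKM in the other purified libraries and 49.4 to 52.1 FPKM in WC. It was higher than the mean of the other types by 1.72 ± 0.19 in microglia (log2, SE; limma adjusted p = 1.44e-06). Its excess over endothelial cells, 0.73 on the log2 scale, had a limma adjusted p of 0.0588 against each other type and was not called. None of its 50-base words occurs in another annotated gene.

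Among the members that fell in microglia, Psmc6 had 9.24 and 7.04 FPKM there and at least 17.8 FPKM in every other purified library (-1.80 ± 0.24, limma adjusted p = 7.80e-06). Psmd14, the deubiquitinase gene of the 19S lid, had 11.2 and 7.20 FPKM there and at least 16.0 FPKM in the others (-1.45 ± 0.15, limma adjusted p = 7.16e-07). Both fell under all 3 scalings, as did Psma3, Psma4, Psmd1, Psmd6, Psme4, Psmg2 and Psmc3ip. So within the same 19S particle Psmd8 stood at its highest type mean in microglia, where Psmc6 and Psmd14 stood at their lowest.

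**Figure D5:**
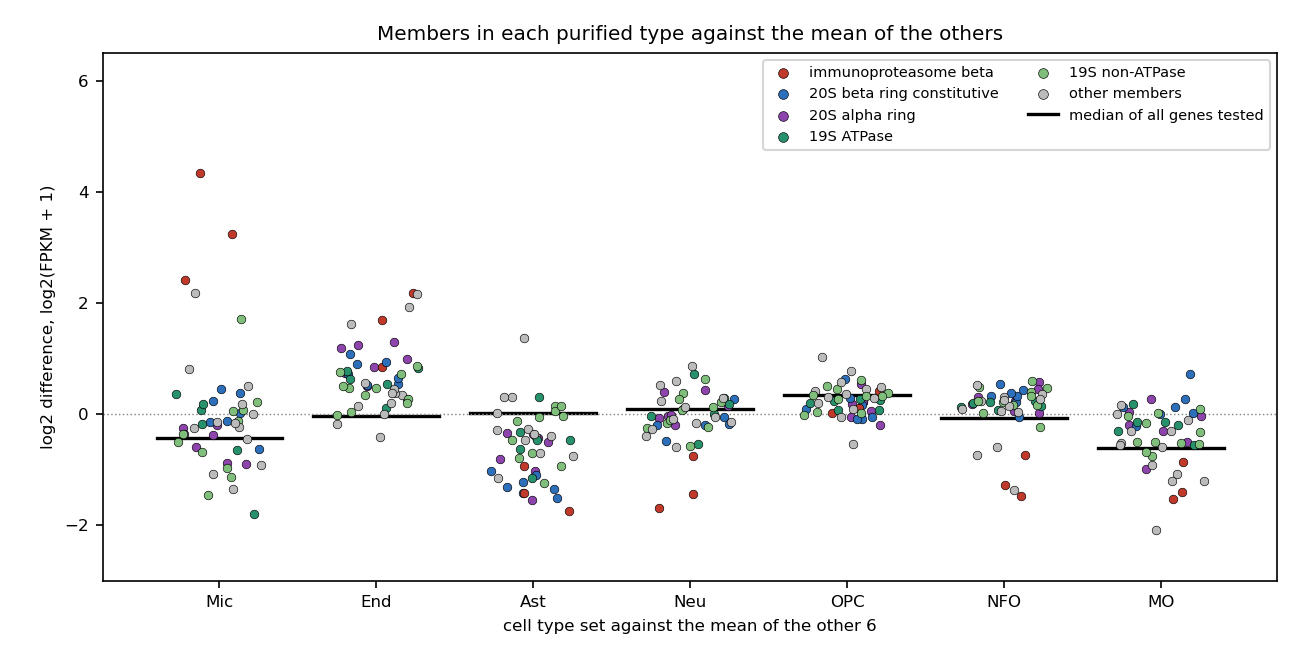
Differences in log2(FPKM + 1) of the 47 tested members in each purified type against the mean of the other 6, coloured by role, with the median of all genes tested as a black line; points are spread sideways for legibility. Most members lie above the line in endothelial cells and below it in astrocytes, and the inducible genes stand apart in microglia.

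The oligodendrocyte lineage runs from OPC through NFO to MO. In OPC 16 of 47 members (34.0%) were higher than the mean of the other types, where 45.9% of all genes were, and 1 was lower (2.13%), where 13.0% were. Psmg2, which encodes the assembly chaperone PAC2, was the one member higher there under all 3 scalings, with 23.1 and 26.0 FPKM in OPC and at most 18.8 FPKM in any other purified library (1.03 ± 0.13, log2, SE; limma adjusted p = 9.47e-06). Psmg3, the gene of the chaperone PAC3, had 10.2 and 13.9 FPKM in OPC and 4.79 to 9.5 FPKM in the others (0.78 ± 0.16, limma adjusted p = 8.08e-04). Psmb5 and Psmd6, a 19S lid gene, were higher by 0.62 ± 0.20 and 0.60 ± 0.11 (limma adjusted p of 0.0157 and 3.26e-04). For Psmb5 the difference was 0.22 without OPC replicate 2 (limma adjusted p = 0.427) and 1.02 without OPC replicate 1. The 2 OPC libraries differed from each other: 30 of the 31 core subunit genes were higher in replicate 2, by a median of 1.42-fold, and the count of members higher in OPC was 25 without replicate 1 and 3 without replicate 2. Without replicate 2 the count lower was 2. With median-of-ratios scaling the split was 1 higher and 12 lower, and with a common sum 25 higher and 1 lower. In NFO 27 of 31 core genes were higher in replicate 2, by a median of 1.31-fold.

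In NFO 7 members (14.9%) were higher than the mean of the other types and 6 (12.8%) were lower, where 22.7% and 30.0% of all genes were. The 7 were core subunits, with Psmd2, a 19S base scaffold gene, the largest at 0.60 ± 0.15 (log2, SE; limma adjusted p = 0.00345). The 6 were Psmb8 (-1.48 ± 0.13), Psme1 (-1.37 ± 0.17), Psmb9 (-1.27 ± 0.14), Psmc3ip, Psmb10 and Psma8. Among the 6, Psmb8, Psmb9 and Psma8 were at or near the floor in NFO, so their calls restate their levels in microglia and endothelial cells. Without NFO replicate 1 Psmb10 was not called (-0.51, limma adjusted p = 0.123). Leaving out OPC replicate 2 made it 14 higher and leaving out NFO replicate 2 made it 3. In NFO against OPC no member rose, where 9.56% of all genes did, and 6 (12.8%) fell, where 38.7% of all genes did. Psmb8 differed by -1.62 ± 0.17, Psmb9 by -1.18 ± 0.19 and Psme1 by -1.13 ± 0.22 (log2, SE; limma adjusted p of 3.01e-06, 1.27e-04 and 7.66e-04), all under each of the 3 scalings. Microglial markers were also lower in NFO, at a median of 0.263% and 0.275% of their microglial level, against 6.42% and 3.08% in OPC, and their part in these falls was not tested. In Psme1 the difference was -0.74 without NFO replicate 1 (limma adjusted p = 0.0105). None of the 31 constitutive core genes was called in this step as deposited, while 7 members rose and 4 fell with median-of-ratios scaling. The differences between replicates 1 and 2 ran together in OPC and NFO (r = 0.726 across genes, which are not independent), although the labels do not say that a number marks a shared source. In a limma fit of these 4 libraries alone with the replicate number as a block, chosen after seeing the data, 1 member rose, Psmd3 (0.40, adjusted p = 0.0426), where 9.23% of all genes did, and 8 fell, where 36.9% did. Without the block the same 4 libraries gave no rise and 3 falls. The count of rises was 6 without OPC replicate 2 and 2 without NFO replicate 1.

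In MO 1 of 47 members (2.13%) was higher than the mean of the other types, where 12.6% of all genes were, and 20 (42.6%) were lower, where 66.3% were. The one was Psmb1, with 135 and 132 FPKM in MO (0.72 ± 0.20, log2, SE; limma adjusted p = 0.00386), higher under all 3 scalings, and the count was 3 without OPC replicate 2. The falls shared by all 3 scalings were Psme1, Psmb8 (-1.53 ± 0.13), Psmb9 (-1.40 ± 0.14), Psme3 (-1.08 ± 0.14), Psma8 and Psmc3ip. Among these, Psmb8, Psmb9 and Psma8 were at or near the floor in MO, so their calls restate their levels in microglia and endothelial cells. Against the median of all genes, -0.60, the members' median stood 0.30 higher and that of the 20S genes 0.61 higher. The split was 24 higher and 6 lower with median-of-ratios scaling and 1 higher and 31 lower with a common sum. Over all genes the median difference in MO was -0.17 for transcripts under 1000 bases and -0.39 for 1000 to 1500 bases. It was -0.50 for 1500 to 2500 bases and -0.75 over 2500 bases. The part of length in the result was not tested. In MO against NFO no member rose, where 5.43% of all genes did, and 16 (34.0%) fell, where 41.8% of all genes did, among them Psme4 (-1.48 ± 0.36), Psme3 (-1.05 ± 0.18), Psmg2 (-1.01 ± 0.16) and Psma1 (-0.89 ± 0.18; limma adjusted p of 0.00405, 4.30e-04, 2.37e-04 and 0.0014). Without NFO replicate 1 Psme4 differed by -0.96 and was not called (limma adjusted p = 0.0615). No member was called in this step under all 3 scalings, since 10 rose and none fell with median-of-ratios scaling while none rose and 27 fell with a common sum. The count of falls was 9 without NFO replicate 2 and 7 without MO replicate 1.

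In neurons 10 of 47 members (21.3%) were higher than the mean of the other types, where 37.5% of all genes were, and 8 were lower, where 29.4% were. Psme1 and Psmd14 were higher under all 3 scalings, and Psmb8 (-1.70 ± 0.13), Psmb9 (-1.44 ± 0.14) and Psma8 were lower under all 3 (log2, SE; limma adjusted p of 3.35e-08 and 5.73e-07 for the first and second). Psmb8, Psmb9 and Psma8 were at or near the floor in neurons, so these calls restate their levels in microglia and endothelial cells. Psmb10 differed by -0.76 ± 0.19 (limma adjusted p = 0.00307), and was not called without neuron replicate 2 (-0.65, limma adjusted p = 0.0552). Other scalings gave 2 higher and 15 lower or 24 higher and 3 lower. The count higher was 6 without neuron replicate 1 and 4 without neuron replicate 2. The count lower was 5 without astrocyte, neuron or MO replicate 1 or endothelial replicate 2.

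In WC, against the mean of the purified types, 3 of 47 members (6.38%) were higher, where 49.3% of all genes were, and 2 (4.26%) were lower, where 10.6% were. The 3 were Psmc3ip (0.52 ± 0.13), Psmg4 (0.48 ± 0.13) and Psma3 (0.45 ± 0.11), and the largest fall was Psmb1 (-0.42 ± 0.16; log2, SE; limma adjusted p of 0.00332, 0.00721, 0.00362 and 0.0383). The median of all genes was 0.31 and the members' median differed from it by -0.31. The split was 1 higher and 27 lower with median-of-ratios scaling, and 19 higher and none lower with a common sum. The count of falls was 0 without any 1 of the 3 WC libraries, astrocyte replicate 2, neuron replicate 1 or endothelial replicate 2. It was 1 without astrocyte replicate 1, NFO replicate 2, either MO library or microglia replicate 2, and 5 without OPC replicate 1. The count of rises was 5 without NFO replicate 2.

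Isoform values were deposited too, and 45 of the 49 members have 1 isoform in them. Psmd10, the gene of the 19S chaperone gankyrin, has 2, of which the minor one took a mean of 35.1% ± 4.99 in neurons, 10.5% ± 12.2 in microglia and 20.5% to 22.4% in the other 5 types (SD, n = 2 each). Psmg4, the gene of the chaperone PAC4, has 2, of which the minor one took 44.2% ± 3.09 in OPC, 41.4% ± 12.3 in endothelial cells and 30.1% to 34.2% in the other 5 types. The SD within a type reached 16.8 points, in MO, and these shares were not tested.

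Of 19 genes listed as partners of the proteasome, 18 were tested. In endothelial cells 9 were higher and 2 lower, where 35.3% and 38.6% of all genes were, and in astrocytes 2 were higher and 8 lower, where 37.3% and 35.7% of all genes were. Pomp, the chaperone gene needed to finish the 20S core, had 233 and 272 FPKM in endothelial cells, 30.6 and 29.7 FPKM in astrocytes and 58.4 to 92.9 FPKM in the other purified libraries. It was higher in endothelial cells by 2.07 ± 0.11 and differed by -1.45 ± 0.11 in astrocytes (log2, SE; limma adjusted p of 7.45e-10 and 6.80e-08). Shfm1, the gene of the small 19S subunit Sem1, had 252 and 284 FPKM in endothelial cells and 41.4 and 38.8 FPKM in astrocytes, with 60.0 to 119 FPKM in the other purified libraries. Neurons had the highest Ubqln2, a shuttle factor gene (82.5 and 78.4 FPKM, at most 36.2 FPKM in other purified libraries), and the highest Nfe2l1, whose product is known to drive proteasome genes (54.0 and 47.0 FPKM, at most 31.2 FPKM in the others).

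Of 11 MHC class I processing genes listed, 10 were tested. All 10 were higher in endothelial cells, where 35.3% of all genes were, 8 were higher in microglia, where 24.9% were, and all 10 were lower in MO, where 66.3% were. Not all of them shared the top types of the inducible subunits. Erap1, a peptide-trimming enzyme gene, had 6.46 and 3.45 FPKM in microglia, 14.7 and 13.7 FPKM in endothelial cells and 9.82 and 7.76 FPKM in astrocytes. Tapbp, the tapasin gene, had 74.7 and 90.3 FPKM in microglia, 19.6 and 18.0 FPKM in endothelial cells and 3.17 to 10.2 FPKM in the other purified libraries. H2-K1, a class I heavy chain gene, had 222 and 180 FPKM in microglia, 89.0 and 94.4 FPKM in endothelial cells and at most 14.5 FPKM in the others. Tap1, across the interval of 225 bases from Psmb9, had 7.75 and 10.1 FPKM in microglia and 8.14 and 8.03 FPKM in endothelial cells, which overlapped. In astrocytes Tap1 had 2.65 and 2.39 FPKM, where Psmb9 had 0.262 and 0.255 FPKM.

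Of 18 interferon and IRF genes listed, 16 were tested, of which 14 were higher and 2 lower in endothelial cells, where 35.3% and 38.6% of all genes were. Usp18 passed the filter through endothelial cells alone (1.84 and 1.81 FPKM, at most 0.346 FPKM elsewhere). Oasl2 (1.17 and 1.39 FPKM there) reached 1 FPKM elsewhere in neuron replicate 2 alone. Calls of Usp18 and Oasl2 in endothelial cells thus restate the level that took them past the filter. In microglia 12 were higher, where 24.9% of all genes were, and none was lower, where 55.2% were, and in MO 15 were lower, where 66.3% were. Irf8, a transcription factor gene of myeloid cells, had 246 and 253 FPKM in microglia, 1.11 and 1.11 FPKM in endothelial cells and 8.36 and 3.63 FPKM in OPC. Irf1 had 54.2 and 59.6 FPKM in microglia, 16.3 and 18.98 FPKM in endothelial cells and 11.9 and 19.02 FPKM in astrocytes, so that endothelial cells and astrocytes overlapped in Irf1 and not in Psmb8. Ifngr1, a chain of the interferon-gamma receptor, had 111 FPKM in both microglial libraries, 20.3 and 20.6 FPKM in endothelial cells and 1.64 to 17.4 FPKM in the other purified libraries. These lists were chosen with earlier results of these data in view, and their counts are given without a test of the list.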

How the data were processed

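The authors deposited gene and isoform FPKM for each library. Genome build mm9 is listed in the submitters' processing notes, which also name Cufflinks 1.3.0, TopHat 1.3.3, CASAVA and Bowtie 0.12.7, with roles not given in the sources used here. Depth could not be recovered from the values. No 2 libraries were identical.

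Gene FPKM were taken as log2(FPKM + 1), and genes with at least 1 FPKM in at least 2 libraries were kept. One limma 3.58.1 model (R 4.3.3, mean-variance trend) held the means of all 8 groups. P-values were Benjamini-Hochberg adjusted over all genes tested, separately in each comparison. A type was called above each other type when the weakest of 6 pairwise comparisons, tested one-sided, passed after adjustment and the log2 difference was at least 1. Pair ratios were tested by exact permutation. The model was checked on simulated data.

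By rule the text names the inducible genes and their partners, Psme1, Psme2, Psma8, Psmb11 and, per comparison, the 4 members with the largest absolute log2 difference among those called. Other members with values, such as Psme3, Psmd8, Psmc6 and Psmd14, and the related genes Tap1, Erap1, Irf1 and Nfe2l1, were chosen after their values were seen. Members and lists were chosen with earlier results of these data known. Alternatives were other pseudocounts, filters and scalings (median-of-ratios, or equal FPKM totals, called a common sum), leaving out each library, and adding a replicate block. A fit of the OPC and NFO libraries alone, with and without that block, was added after seeing the data. One gene among those most like Psmb10 is not reported here. Shared words were counted in GENCODE M21 transcripts.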

Additional observations from a re-analysis of the deposited data

How the results depend on the processing

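Scaling moved many of the counts of members called. With median-of-ratios scaling the counts higher and lower were 1 and 38 in astrocytes, 2 and 15 in neurons, 1 and 12 in OPC, 24 and 6 in MO, 19 and 9 in microglia, 28 and 2 in endothelial cells, 7 and 4 in NFO against OPC, 10 and 0 in MO against NFO, and 1 and 27 in WC. With a common sum of FPKM they were 8 and 20, 24 and 3, 25 and 1, 1 and 31, 6 and 34, 25 and 2, 0 and 8, 0 and 27, and 19 and 0, in the same order. With no filter 1 member was lower in WC, and with a filter at 5 FPKM 0 were lower in OPC.

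With single libraries left out, the counts higher and lower ran from 1 to 3 and 24 to 33 in astrocytes, 4 to 12 and 5 to 9 in neurons, 3 to 25 and 1 to 2 in OPC, 3 to 14 and 5 to 7 in NFO, and 1 to 3 and 16 to 23 in MO. They ran from 7 to 10 and 15 to 19 in microglia, 19 to 36 and 0 to 1 in endothelial cells, 0 to 6 and 5 to 9 in NFO against OPC, 0 to 0 and 7 to 19 in MO against NFO, and 3 to 5 and 0 to 5 in WC.

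The excess of microglia over the next type ran from 0.65 to 1.17 for Psmb9 and from 0.99 to 1.68 for Psmb10 with single libraries left out, and was 1.43 for Psmb9 with median-of-ratios scaling. Ratio differences changed sign for Psmb8 over Psmb5 in OPC (-0.21) and Psmb9 over Psmb6 in astrocytes (0.000703) with a pseudocount of 1 FPKM, and for Psmb10 over Psmb7 in OPC without microglia replicate 2 (0.0345), in a range of -0.35 to 0.0345 with single libraries left out. With median-of-ratios scaling the differences of Psmb5 in MO (0.72) and of Psmb7 (0.64) and Psme1 (0.0170) in MO against NFO also changed sign. The causes were not tested.

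The replicate block over all groups moved 1 count by over 1.5 times, that of members lower in WC, which was 0. The labels do not say that a number marks a shared source. Of 28 correlations of replicate differences between groups 7 were over 0.1, from -0.25 to 0.726 (OPC and NFO). In 5 of 8 groups the strongest positive correlation with another group was larger in size than the strongest negative one. With the OPC and NFO libraries alone, added after seeing the data, 0 members were higher and 3 lower in NFO against OPC, and 1 and 8 with the replicate block. Depth is unknown, so no limit can be set for members at the floor of 0.1 FPKM.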
